A study of Mus musculus with 12 samples.

Results

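The transcripts examined here encode 10 receptor chains of the cytokine families that depend on the tyrosine kinase JAK1: the interferon receptor chains (Ifnar1, Ifnar2, Ifngr1, Ifngr2), the interleukin 10 family chain Il10rb, the gp130 group (Il6st, Il6ra, Lifr), the common gamma chain Il2rg and the interleukin 4 receptor chain Il4ra. They were chosen by symbol, and all 10 were found among the 23472 genes of the count table. Poly-A RNA was sequenced in 12 libraries of LT-HSCs (long-term haematopoietic stem cells, a small marrow population from which all blood lineages are renewed) of C57BL/6 mice. Of these, 6 are labelled Jak1 KO and came from cre-positive animals, and 6 are labelled wt and came from cre-negative animals. Both genotypes had received 4 doses of poly(I:C), a synthetic RNA that provokes interferon release, and marrow was taken 4 to 6 weeks later. Replicates 1 to 3 of each genotype carry library names of a VD set and replicates 4 to 6 carry names of a ZL set. The labels name neither the cre driver nor the deleted exons. As wt mice lacked cre, cre activity and loss of Jak1 cannot be told apart. The labels do not tie each library to its own animal, so p-values speak only to the spread among these samples, part of which may be technical.

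These receptors have no enzyme activity of their own. A cytokine draws 2 or more chains together, the JAK kinases held on their intracellular tails activate one another, and STAT transcription factors docked on the tails are phosphorylated and move to the nucleus. IFNAR2, IFNGR1, gp130, LIFR and IL4RA hold JAK1 themselves. IFNAR1 and IL10RB hold TYK2, IFNGR2 holds JAK2 and the common gamma chain holds JAK3, each beside a JAK1-bearing partner, and IL6RA binds interleukin 6 and leaves the signal to gp130. In the stem cell compartment interferons are known to push quiescent cells into division.

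Library totals ranged from 8989965 to 28701855 counts, and 14.8% to 22.6% of VD counts but 0.511% to 0.950% of ZL counts fell on ribosomal Rn45s. Jak1 itself had 375, 408 and 391.8 CPM (normalised counts, scaled by the library total) in the VD Jak1 KO libraries and 246, 385 and 727 CPM in the ZL ones, against 358, 341 and 321 CPM in VD wt and 435, 364 and 422 CPM in ZL wt. In VD all Jak1 KO values lay above all wt values (log2 fold change 0.24, SE 0.083, adjusted p = 0.195 with edgeR). Over the 12 libraries the log2 fold change was 0.18 (SE 0.20, adjusted p = 0.945 with edgeR). Reads of any exon outside a deleted part would enter this count, and the deleted exons are not named, so it does not check the labels. Why it was not lower was not tested. LT-HSC markers were abundant, with 12 of 12 present and a summed level of 2017 to 4229 CPM in Jak1 KO and 2243 to 4278 CPM in wt libraries. T and NK cell markers summed to 21.3 to 31.0 CPM in Jak1 KO and 15.7 to 27.8 CPM in wt libraries, with 6 of 9 below 1 CPM in every library, and monocyte and macrophage markers to 11.4 to 34.1 CPM in Jak1 KO and 8.03 to 23.4 CPM in wt. Neutrophil markers reached 1350 CPM in Jak1 KO and 1386 CPM in wt libraries of the VD set, against at most 14.2 CPM in Jak1 KO and 11.5 CPM in wt libraries of the ZL set, and their part in the levels of receptor transcripts was not tested. Of the other lists, erythroid markers summed to 37.7 to 86.3 CPM in Jak1 KO and 52.1 to 317 CPM in wt, B-cell markers to 29.6 to 145 CPM in Jak1 KO and 29.1 to 70.6 CPM in wt, and markers of other progenitors to 472 to 679 CPM in Jak1 KO and 415 to 622 CPM in wt.

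RNA of all 10 chains was found in the wt LT-HSC libraries, over a wide range of levels, and Lifr was near the floor in Jak1 KO libraries. Bulk counts do not say which cells held each transcript. Levels between genes are compared in TPM, which scale the counts by exon length as well as by library. At the top was Il2rg, the shared gamma chain of the interleukin 2, 4, 7, 9, 15 and 21 receptors, with 235 ± 76.6 TPM in Jak1 KO and 238 ± 80.8 TPM in wt libraries (SD, n = 6 each). Ifngr1, the ligand-binding chain of the interferon gamma receptor, followed with 187 ± 52.7 TPM in Jak1 KO and 177 ± 55.8 TPM in wt. Ifnar2, the JAK1-bearing chain of the type I interferon receptor, had 119.7 ± 26.5 TPM in Jak1 KO and 112 ± 25.7 TPM in wt. These 3 ranked highest, in this order, in all 6 wt libraries, and Il2rg and Ifngr1 led in all 12.

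The middle of the order was closely packed. Ifnar1 had 59.8 ± 27.2 TPM in Jak1 KO and 61.9 ± 12.8 TPM in wt, Il10rb had 55.3 ± 13.6 TPM in Jak1 KO and 53.0 ± 17.6 TPM in wt, and Il4ra had 48.6 ± 22.6 TPM in Jak1 KO and 43.7 ± 9.99 TPM in wt. Neighbours were said to differ beyond their spread where the mean log2 difference within wt libraries was larger than its SD, and by that measure neither Ifnar1 over Il10rb (0.26 ± 0.73) nor Il10rb over Il4ra (0.24 ± 0.74) did. That spread holds both name sets, and the order differed between them: Ifnar1 exceeded Il4ra and Il4ra exceeded Il10rb in all 6 VD libraries, whereas Il10rb exceeded both in 4 of 6 ZL libraries. Ifnar1 exceeded Il4ra in all 6 ZL libraries as well. Ifngr2 (25.6 ± 4.13 TPM in Jak1 KO, 21.7 ± 7.20 TPM in wt) and Il6st, the gene of gp130 (16.2 ± 8.76 TPM in Jak1 KO, 16.6 ± 5.83 TPM in wt), did not differ beyond their spread either. All other neighbours did. The mean wt level of Il2rg exceeded that of 96.9% of the genes with a known exon length, that of Ifnar1 82.3% and that of Il6st 61.6%.

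Il6ra and Lifr lay far below the rest. Il6ra, the ligand-binding chain for interleukin 6, had 4.47 ± 3.85 TPM in Jak1 KO and 5.04 ± 4.11 TPM in wt. Lifr, the chain that pairs with gp130 for leukaemia inhibitory factor, had 0.133 ± 0.135 TPM in Jak1 KO and 0.515 ± 0.122 TPM in wt. With at least 1 CPM taken as detected, 9 of the 10 chains were detected in all 12 libraries, and Lifr in 0 of 6 Jak1 KO and 5 of 6 wt libraries.

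**Figure D1:**
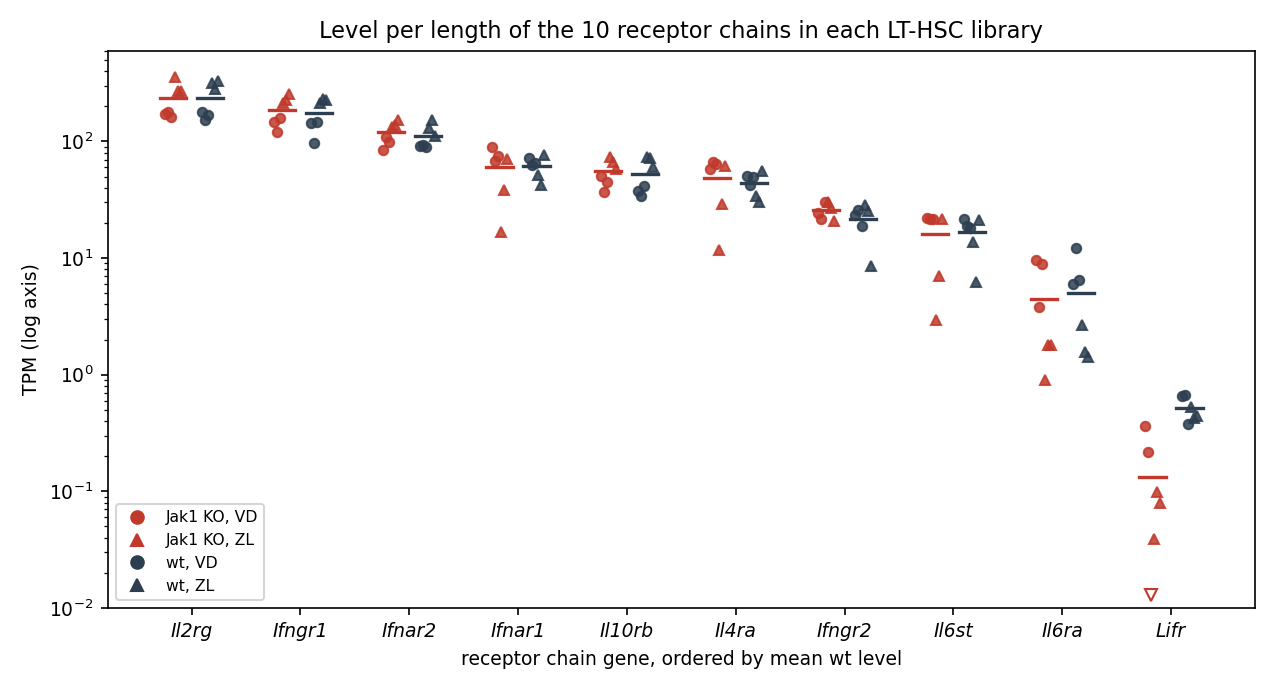
Level in TPM (log axis) of each receptor chain in each library, with Jak1 KO left of wt for each gene, circles for VD and triangles for ZL, and a line at the mean of 6 libraries; the open downward triangle near the foot of the axis stands for the VD Jak1 KO library with 0 Lifr counts and is not to scale. The genotypes overlap for 9 chains, and the Lifr points reach 0.364 TPM in Jak1 KO libraries and run between 0.374 and 0.663 TPM in wt libraries.

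The comparison of Jak1 KO with wt asks whether LT-HSCs labelled as lacking JAK1 differ in the transcripts of its receptors. None of the 10 chains passed edgeR's quasi-likelihood test at an adjusted p of 0.05 over 13184 genes, of which 58 (0.44%) passed, 57 lower (0.432%) and 1 higher (0.00758%). At an unadjusted p under 0.05 there was 1 of 10, Lifr, against 5.06% of all genes in either direction and 2.66% lower. DESeq2 called 1 of 10, again Lifr, against 0.961% of all genes, and limma-voom called 0, against 1.67%. Lifr was also the 1 member at least 2-fold lower by its fitted fold change, against 1.02% of all genes. Apart from Lifr, the log2 fold changes lay between -0.23 and 0.28, with 6 above 0 and 3 below, and their 95% intervals lay between -0.86 and 0.90. Adjusted p-values of these 9 were 0.945 to 0.978. The median log2 fold change of the 10 was 0.05, against -0.0060 over all genes tested. All 10 passed the filter on low counts, but Lifr did so through its wt libraries alone, the group where it is high, so its calls and their setting against the shares of all genes are a description and no support for a difference.

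**Figure D2:**
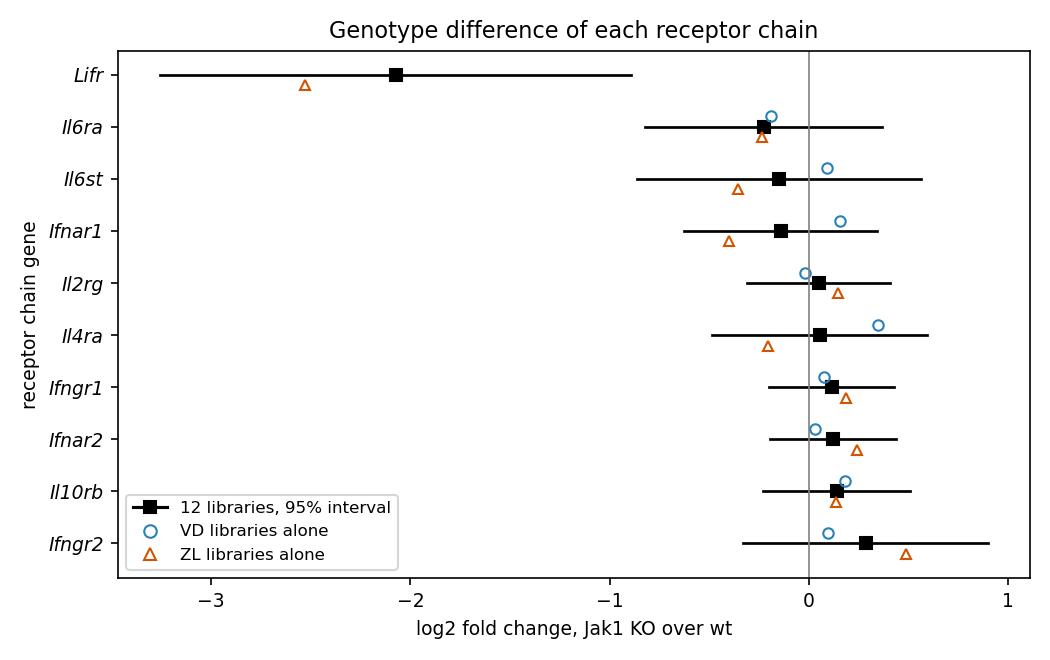
Log2 fold change of each receptor chain, Jak1 KO over wt, from edgeR with name set as a term (squares, with 95% intervals) and in the VD (circles) and ZL (triangles) libraries alone. The intervals of 9 chains span 0; that of Lifr runs from -3.26 to -0.89, and no VD value is drawn for Lifr because it did not pass the count filter there.

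Lifr was the member that stood apart. Its raw counts were 10, 4 and 0 in the VD Jak1 KO libraries and 2, 9 and 5 in the ZL ones, against 23, 14 and 10 in VD wt and 36, 38 and 32 in ZL wt. In normalised units these were 0.799, 0.488 and 0.00 CPM in VD Jak1 KO and 0.151, 0.285 and 0.199 CPM in ZL Jak1 KO, against 1.56, 1.57 and 0.873 CPM in VD wt and 1.40, 1.26 and 1.18 CPM in ZL wt. Within each name set all Jak1 KO values lay below all wt values, by a wide margin in ZL and narrowly in VD, where the highest Jak1 KO value was 0.799 CPM and the lowest wt value 0.873 CPM. This arrangement held for 127 of the 13184 genes (0.963%), the opposite one for 56 (0.425%), and either for 183 (1.39%). The library with 0 counts, Jak1 KO 3, allows up to 0.281 CPM on a floor of 3 counts, which covers counting error only. The fitted fold was 4.21-fold lower (log2 fold change -2.07, SE 0.55, 95% interval -3.26 to -0.89), with an adjusted p of 0.248 in edgeR. DESeq2's adjusted p was 0.0181 and limma-voom's 0.133.

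The Lifr difference missed the threshold in edgeR and rested on 30 counts in Jak1 KO and 153 in wt libraries. In fits that left out 1 library the log2 fold change was -2.52 to -1.85 and the adjusted p 0.159 to 0.590. In bulk RNA, fewer cells that hold a transcript and less of it per cell cannot be told apart. Markers of stromal and endothelial cells, other marrow cells known to carry LIFR, summed to 100.6 to 171 CPM in Jak1 KO and 95.4 to 144 CPM in wt libraries. Of the 5 of 8 that could be tested 0 passed edgeR's threshold, with Pecam1 at a mean of 54.9 CPM in Jak1 KO and 61.8 CPM in wt, Emcn at 50.1 CPM in Jak1 KO and 31.4 CPM in wt, and Col1a2 at 22.6 CPM in Jak1 KO and 17.4 CPM in wt. Kdr, Cxcl12, Lepr and Col1a1 reached at most 14.2, 7.19, 3.46 and 1.22 CPM in any library, and Cdh5 0.603 CPM. Bulk RNA does not tell whether stem cells or other cells held these marker transcripts. The part of stromal and endothelial cells in the Lifr values was not tested. The megakaryocyte list summed to 463 to 776 CPM in Jak1 KO and 1006 to 1388 CPM in wt libraries. With edgeR 1 of 6 tested genes was lower, Itga2b, against 0.432% of all genes. Mean CPM was lower for Pf4 (131 in Jak1 KO, 276 in wt), Vwf (139, 266) and Gp1ba (23.8, 30.7). It was not lower for Gp9 (52.0 in Jak1 KO, 51.4 in wt) or Ppbp (12.3, 10.7). The summed ranges did not overlap between genotypes, and no share over all genes was computed for such sums. The part of this list in the Lifr values was not tested either, and which cells held its transcripts cannot be told.

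Lifr lies on chromosome 15 from 7090614 to 7197489 (GRCm38, GENCODE), on the plus strand. RefSeq (GRCm38.p6) gives it 2 start sites, and the 300 bases around each are printed because this is the member with the largest difference. The first, chr15:7129322-7129621, is 81.3% G and C, and the second, chr15:7140292-7140591, is 53.3%. Capitals would mark the interferon-stimulated response element (GAAA, any 2 bases, GAAA) or the STAT-binding GAS element TTCNNNGAA, each searched on both strands, and neither window held one.
Lifr, start site 1: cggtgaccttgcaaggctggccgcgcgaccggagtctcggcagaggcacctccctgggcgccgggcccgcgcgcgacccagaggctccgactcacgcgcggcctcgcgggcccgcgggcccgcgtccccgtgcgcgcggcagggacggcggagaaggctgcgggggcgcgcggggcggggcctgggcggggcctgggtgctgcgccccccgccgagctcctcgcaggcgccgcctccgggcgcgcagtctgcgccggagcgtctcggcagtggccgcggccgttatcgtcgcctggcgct
Lifr, start site 2: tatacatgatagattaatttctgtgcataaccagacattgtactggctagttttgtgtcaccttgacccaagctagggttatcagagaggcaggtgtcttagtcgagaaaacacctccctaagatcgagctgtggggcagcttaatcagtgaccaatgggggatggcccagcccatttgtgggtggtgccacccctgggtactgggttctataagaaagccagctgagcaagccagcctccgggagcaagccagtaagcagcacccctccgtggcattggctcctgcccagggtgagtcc
No match says only that these letters are not in these windows. In all, 3.44% of the 32851 RefSeq mouse promoters of this length held the first element and 8.30% the second.

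Il6st, the partner of Lifr, had 49.8, 49.1 and 48.8 CPM in VD Jak1 KO and 11.8, 20.7 and 56.8 CPM in ZL Jak1 KO, against 53.5, 45.9 and 43.2 CPM in VD wt and 37.0, 19.2 and 57.6 CPM in ZL wt. The VD libraries were tightly grouped and the genotypes overlapped in both sets, and in ZL both genotypes spread widely. The fitted log2 fold change was -0.15 (SE 0.33, adjusted p = 0.956 with edgeR). Il6ra had 17.1, 6.83 and 15.4 CPM in VD Jak1 KO and 2.79, 4.12 and 3.62 CPM in ZL Jak1 KO, against 11.4, 23.1 and 12.1 CPM in VD wt and 5.58, 3.75 and 3.00 CPM in ZL wt. Here too the genotypes overlapped in both sets (log2 fold change -0.23, SE 0.28, adjusted p = 0.945 with edgeR).

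The oncostatin M receptor gene Osmr, whose product likewise pairs with gp130, was at the limit of detection and did not pass the count filter; it was singled out after its values were seen. It had 0, 0 and 4 counts in VD Jak1 KO and 1, 3 and 9 in ZL Jak1 KO, against 19, 1 and 4 in VD wt and 48, 26 and 38 in ZL wt. The ZL Jak1 KO libraries (0.0754, 0.0951 and 0.358 CPM) all lay below the ZL wt libraries (1.86, 0.864 and 1.41 CPM), and the genotypes overlapped in VD. The share of all genes with such a gap in ZL alone was not computed, so the Osmr values are a description and no support for the Lifr difference. Without a count filter its log2 fold change was -2.56 (SE 0.85, adjusted p = 0.729 with edgeR), and that of Lifr was -2.04 (adjusted p = 0.659).

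**Figure D3:**
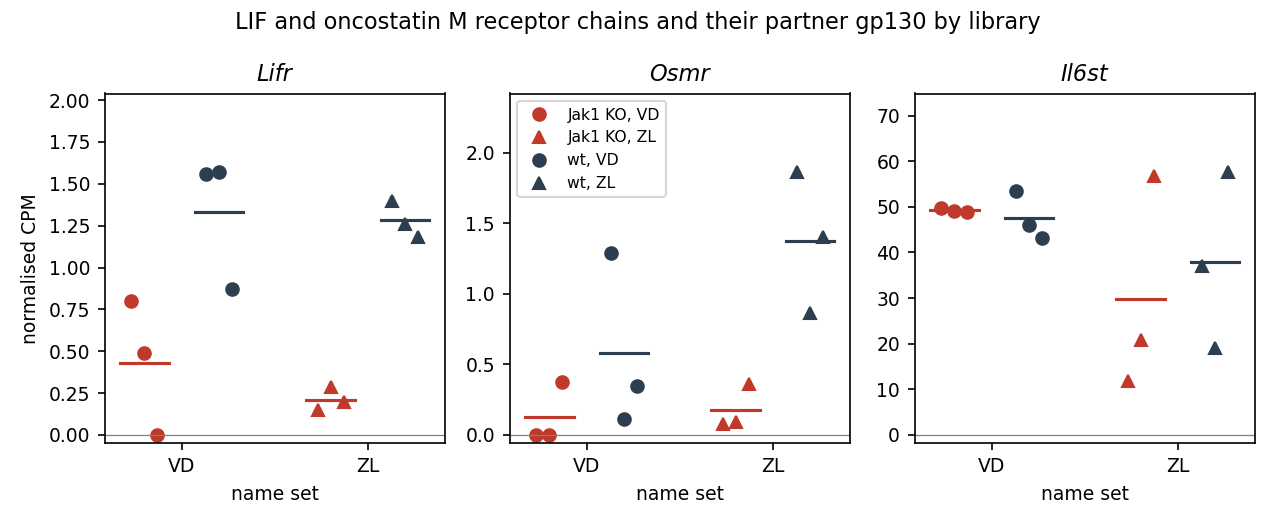
Normalised CPM of Lifr, Osmr and their partner Il6st in each library by name set, Jak1 KO left of wt, with a line at the mean of 3 libraries. Lifr shows no overlap of genotypes in either set, Osmr none in ZL, and Il6st overlaps in both. The share of all genes without overlap in ZL alone was not computed.

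Since partner chains act together, their ratio per length was taken within each library, which removes the scaling of library size. The log2 ratio of Lifr to Il6st averaged -7.04 ± 1.64 in Jak1 KO and -4.90 ± 0.62 in wt libraries (SD, n = 6 each). The difference of -2.14 gave p = 0.005 in an exact two-sided permutation test of genotypes within name sets, the smallest p that the 400 relabelings can give, and 0.02 when adjusted over the 4 pairs tested. It rests on the same Lifr counts as the fold change above, and Il6st differed little (log2 fold change -0.15). The pairs were also chosen with earlier results of these data known. This p-value is therefore a description and no independent support for a Lifr difference. The lowest ratio, -9.98 in Jak1 KO 3, comes from 0 Lifr counts and is set by the pseudocount of 0.5, and without that library the difference was -1.50 (adjusted p = 0.02). Sign flips of same-numbered libraries gave an adjusted p of 0.125, the smallest that 64 flips over 4 pairs allow. These transcripts have similar exon lengths, 10776 and 11099 bases. In tests that left out 1 library the difference was -2.54 to -1.50, and the exact permutation test lost its call without wt 1 (adjusted p = 0.10), wt 2 (0.10), wt 3 (0.08) or Jak1 KO 6 (0.06).

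The other 3 pairs did not pass, each with an exact permutation test over the same relabelings. The log2 ratio of Ifnar1 to Ifnar2 was -1.16 ± 1.12 in Jak1 KO and -0.85 ± 0.60 in wt (adjusted p = 0.793). That of Ifngr1 to Ifngr2 was 2.83 ± 0.46 in Jak1 KO and 3.05 ± 0.93 in wt (adjusted p = 0.793). That of Il6ra to Il6st, which shares its lower term with the Lifr ratio, was -2.04 ± 0.90 in Jak1 KO and -2.04 ± 1.09 in wt (adjusted p = 0.995). In every library Ifngr1 RNA exceeded Ifngr2 RNA and gp130 RNA exceeded both of its partners.

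**Figure D4:**
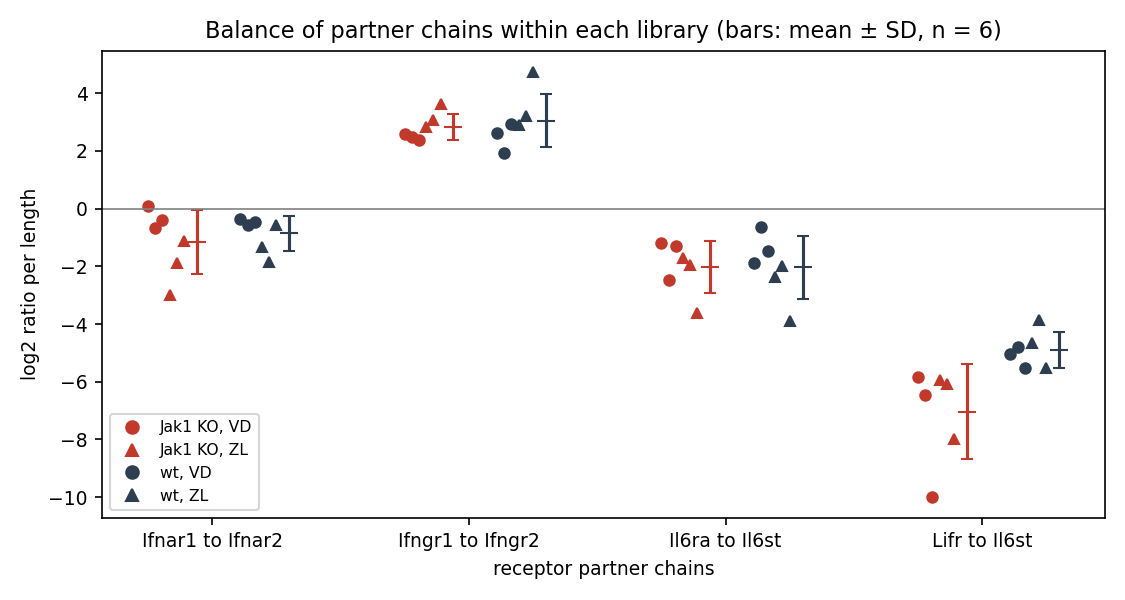
Log2 ratio per length of partner receptor chains in each library, Jak1 KO left of wt, circles for VD and triangles for ZL, with mean and SD of 6 libraries. Lifr to Il6st averages -7.04 in Jak1 KO and -4.90 in wt, and the genotypes overlap for the other 3 pairs.

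Of the type I interferon receptor, Ifnar1 had 109.6, 83.5 and 90.2 CPM in VD Jak1 KO and 35.7, 60.3 and 98.5 CPM in ZL Jak1 KO, against 95.2, 82.2 and 83.9 CPM in VD wt and 74.6, 70.1 and 112 CPM in ZL wt. Its genotypes overlapped in both sets (log2 fold change -0.14, SE 0.23, adjusted p = 0.947 with edgeR), and without Jak1 KO 4 the value was 0.05. Ifnar2 had 57.5, 74.6 and 66.5 CPM in VD Jak1 KO and 159.9, 124 and 120.2 CPM in ZL Jak1 KO, against 67.7, 68.0 and 64.2 CPM in VD wt and 106, 142 and 92.1 CPM in ZL wt. It too overlapped in both sets (log2 fold change 0.12, SE 0.15, 95% interval -0.20 to 0.44).

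Ifnar2, Il10rb, Ifnar1 and Ifngr2 stand in this order on the plus strand of chromosome 16, within 193 kb from 91372783 to 91565623 (GRCm38). The 10 RefSeq promoter windows cover 9 members (Lifr with 2, Il10rb not matched). Those of Ifnar1 and Ifnar2 held a GAS match and 0 held the response element. Of all 32851 RefSeq mouse promoters of this length, 8.30% held a GAS match and 3.44% the response element. The windows of Ifnar1 and Ifnar2 are printed, with the match in capitals, because these chains form the receptor whose ligand poly(I:C) induces. In Ifnar1 (chr16:91484965-91485264) the match covers -5 to 3, counted with the start site as 0, and in Ifnar2 (chr16:91372533-91372832) it covers -214 to -206.
Ifnar1: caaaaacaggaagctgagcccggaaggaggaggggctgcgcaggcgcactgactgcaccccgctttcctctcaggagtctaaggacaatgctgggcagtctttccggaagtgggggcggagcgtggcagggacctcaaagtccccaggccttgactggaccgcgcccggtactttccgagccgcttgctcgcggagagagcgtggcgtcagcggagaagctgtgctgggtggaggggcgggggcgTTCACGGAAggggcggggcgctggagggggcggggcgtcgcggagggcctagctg
Ifnar2: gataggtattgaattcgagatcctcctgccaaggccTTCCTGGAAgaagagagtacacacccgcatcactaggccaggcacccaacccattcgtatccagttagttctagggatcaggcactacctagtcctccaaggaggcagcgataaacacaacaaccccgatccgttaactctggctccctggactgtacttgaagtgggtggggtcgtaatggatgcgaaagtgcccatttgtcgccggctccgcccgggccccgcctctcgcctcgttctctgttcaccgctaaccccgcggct
A match of letters is not evidence of binding.

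Of the interferon gamma receptor, Ifngr1 had 85.3, 71.3 and 90.7 CPM in VD Jak1 KO and 221, 171 and 171 CPM in ZL Jak1 KO, against 90.5, 61.1 and 89.8 CPM in VD wt and 148, 185 and 161 CPM in ZL wt. Overlap was seen in both sets (log2 fold change 0.11, SE 0.15, 95% interval -0.20 to 0.43). Ifngr2 had 18.7, 16.7 and 22.8 CPM in VD Jak1 KO and 40.9, 27.2 and 18.2 CPM in ZL Jak1 KO, against 19.5, 21.2 and 15.4 CPM in VD wt and 26.3, 26.5 and 7.96 CPM in ZL wt. The lowest Ifngr2 value was that of wt 6, and the genotypes overlapped in both sets (log2 fold change 0.28, SE 0.29, adjusted p = 0.945 with edgeR). Without wt 6 its log2 fold change was 0.085.

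Il10rb, shared by the interleukin 10 and 22 and lambda interferon receptors, had 39.5, 29.01 and 34.8 CPM in VD Jak1 KO and 100.4, 68.2 and 52.3 CPM in ZL Jak1 KO, against 31.6, 28.6 and 33.9 CPM in VD wt and 67.9, 76.0 and 56.4 CPM in ZL wt (log2 fold change 0.14, SE 0.17). Il2rg had 84.3, 88.3 and 78.4 CPM in VD Jak1 KO and 307, 173 and 151 CPM in ZL Jak1 KO, against 94.8, 79.4 and 86.9 CPM in VD wt and 186, 188 and 193 CPM in ZL wt (log2 fold change 0.05, SE 0.17). The genotypes overlapped in both sets for both genes. Il4ra had 70.7, 82.5 and 78.3 CPM in VD Jak1 KO and 25.6, 46.7 and 86.6 CPM in ZL Jak1 KO, against 67.2, 55.4 and 64.2 CPM in VD wt and 50.3, 50.3 and 82.5 CPM in ZL wt. In VD its Jak1 KO libraries all lay above wt, and the share of all genes that did so in VD alone was not computed. The log2 fold change there was 0.35 (SE 0.12, adjusted p = 0.194 with edgeR, which called 1.15% of 12903 genes in VD). In ZL the genotypes of Il4ra overlapped (-0.20, SE 0.45, with 0.0% of all genes called).

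Whether the genotype difference of a chain itself differed between VD and ZL was tested as an interaction. Among the 10 chains 0 passed with edgeR, 0 had an unadjusted p under 0.05 and 0 passed with limma-voom. Of all genes, edgeR called 0.0% at an adjusted p of 0.05 and 1.38% had an unadjusted p under 0.05. The smallest p among the members was 0.267, for Ifnar1, where ZL minus VD was -0.52 on the log2 scale (95% interval -1.48 to 0.44). On simulated counts of this design the test recovered 52.0% of genes whose effect differed by 2 and 2.04% of those that differed by 1. Apart from the added effects, each simulated gene had the same mean in all libraries, without name set differences or length trends. These shares may therefore not hold for the real counts.

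The name sets differed in the level of several chains. Il2rg was 2.17-fold higher in ZL wt than in VD wt libraries, Il10rb 2.13-fold, Ifngr1 2.04-fold and Ifnar2 1.70-fold, so that 4 of 10 had every ZL wt library above every VD wt library, as did 35.1% of all genes tested. Il6ra was 3.78-fold higher in VD wt than in ZL wt, 1 of 10 with the opposite arrangement, against 21.3% of all genes. These shares are near those of the whole table. Ifnar1, Il4ra, Lifr and Ifngr2 had ZL means of 0.960 to 1.08 times the VD mean, and Il6st 0.798 times. What separates the sets is not stated in the labels, so this difference cannot be told apart from technical ones, Rn45s content and neutrophil transcripts included.

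Exon length moved with these values. Over the 10 members the log2 difference of ZL over VD in wt fell with exon length (Spearman -0.75, and -0.85 without Lifr). Single libraries showed length trends too. In the library Jak1 KO 4, whose log2 CPM relative to its name set fell with exon length over 13072 genes (Spearman -0.52), the longer transcripts of Ifnar1, Il4ra and Il6st stood at -1.23, -1.21 and -1.54 from the wt mean of ZL on the log2 scale. The shorter ones of Il2rg, Ifngr1, Ifnar2, Il10rb and Ifngr2 stood at 0.70, 0.43, 0.52, 0.60 and 1.203. Jak1 KO 6 and wt 6 showed the opposite trend (0.45 and 0.38). In Lifr, one of the longest, ZL Jak1 KO 4, 5 and 6 stood at -2.42, -1.81 and -2.17, and the trend ran down in the first 2 (-0.52 and -0.17) and up in Jak1 KO 6. Ifnar1 (5940 bases) and Ifnar2 (3329 bases), the 2 chains of one receptor, correlated at -0.81 over the 12 libraries within name sets (Pearson), which is given as a description, since the libraries share these trends. With an offset for each library's length trend, added after the data were seen, the log2 fold change of Lifr was -2.02 (SE 0.54, adjusted p = 0.222 with edgeR). Without Jak1 KO 4, Jak1 KO 6 and wt 6 together it was -1.76 (adjusted p = 0.575). The count of chains past the threshold was 0 in both fits.

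**Figure D5:**
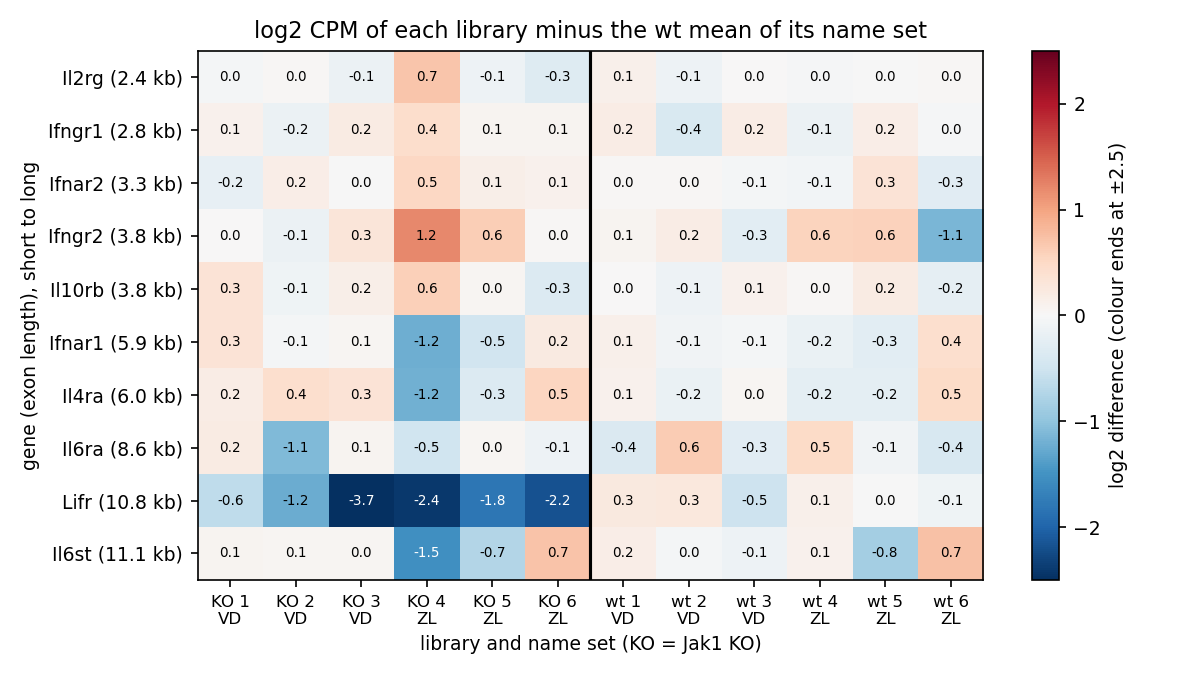
Log2 CPM of each receptor chain in each library minus the wt mean of its name set, with Jak1 KO libraries left of the line and wt right of it and genes ordered from short to long exon length. Jak1 KO 4 is above the wt mean for the 5 shortest genes and below it for the 5 longest, and Lifr is below it in all 6 Jak1 KO libraries.

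By the naming rule, the genes with the most similar pattern were sought for the 3 highest chains, by Pearson correlation of log2 CPM centred within name sets over 12 libraries. For Il2rg these were G6pc3 (r = 0.95, Spearman 0.91), Lypla2 (0.95, 0.84) and Abhd16a (0.95, 0.80). For Ifngr1 they were Phf7 (0.95, 0.94), Klf7 (0.93, 0.86) and Nme7 (0.92, 0.91), and for Ifnar2 they were Ddost (0.94, 0.91), Ankrd33b (0.94, 0.80) and Med9 (0.91, 0.83). The libraries share depth and length trends, and Jak1 KO 4 was among the 2 farthest from the median for each of these chains. Without those 2 libraries Pearson's r was 0.71 to 0.79 for the Il2rg set, 0.83 to 0.94 for the Ifngr1 set and 0.75 to 0.86 for the Ifnar2 set.

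The rest of the pathway was read from lists of ligands, other receptor chains, signalling components, brakes, and genes that answer to these receptors. Of 21 other chains that signal with JAK1, 9 passed the count filter, with a median log2 fold change of 0.0072. EdgeR called 0, with 0 at an unadjusted p under 0.05, and DESeq2 and limma-voom also called 0. Nearest were Il21r, the interleukin 21 receptor (94.7 CPM in Jak1 KO, 68.7 CPM in wt, a log2 difference of 0.41, SE 0.19, adjusted p = 0.945 with edgeR), and Il27ra, which pairs with gp130 (71.6 CPM in Jak1 KO and 87.7 CPM in wt, -0.29, SE 0.15). The chains Il2ra, Il2rb and Il7r, which carry the gamma chain's lymphoid cytokines, had 15, 25 and 43 counts over all 12 libraries and did not pass the filter. The interleukin 10 partner Il10ra stood at 2.20 TPM in Jak1 KO and 3.48 TPM in wt libraries, below Il10rb.

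Of 31 ligand genes 8 passed the filter and 7 had 0 counts in every library. EdgeR called 0 of the 8, DESeq2 0 and limma-voom 1, Il27, against 1.67% of all genes with limma-voom. At an unadjusted p under 0.05 edgeR had 2 of 8, against 5.06% of all genes. Clcf1, a ligand of the gp130 group, had 14.5 CPM in Jak1 KO and 10.4 CPM in wt libraries (log2 fold change 0.49, SE 0.20, adjusted p = 0.852 with edgeR), and Il7 had 5.97 CPM in Jak1 KO and 8.87 CPM in wt (-0.50, SE 0.22, adjusted p = 0.943).

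Among genes that act downstream of the receptors, Irf9, a DNA-binding component of the type I interferon response, was lower with edgeR, at 47.0 CPM in Jak1 KO and 123 CPM in wt libraries (log2 fold change -1.35, SE 0.14, adjusted p = 0.00034). Of 18 brakes 1 was lower, against 0.432% of all genes, namely Usp18, an inhibitor that acts at IFNAR2, at 12.9 CPM in Jak1 KO and 30.5 CPM in wt (-1.23, SE 0.23, adjusted p = 0.0284). Of 16 genes known to answer to these receptors 7 were lower and 0 higher, against 0.432% and 0.00758% of all genes. The 7 were Irf7, Mx1, Ifit1, Oas2, Iigp1, Gbp2 and Cxcl10, which are known interferon targets. Another interferon target, Irf1, did not pass, with 95.2 CPM in Jak1 KO and 152 CPM in wt (-0.66, SE 0.14, adjusted p = 0.0621). Ifit1 had 8.12 CPM in Jak1 KO and 24.8 CPM in wt (-1.51, SE 0.21, adjusted p = 0.0026) and Gbp2 53.6 CPM in Jak1 KO and 86.0 CPM in wt (-0.67, SE 0.13, adjusted p = 0.0474). Among the genes of the gp130 and common gamma branches, Bcl2, Bcl3, Cebpd, Junb, Myc, Bcl6 and Ccnd1 did not pass, nor did Pim1 (152 CPM in Jak1 KO, 101.3 CPM in wt, log2 fold change 1.07, adjusted p = 0.902) or Socs3 (4.73 CPM in Jak1 KO, 8.18 CPM in wt, -0.83, adjusted p = 0.818). Bcl2 had 142 CPM in Jak1 KO and 185 CPM in wt (-0.36, SE 0.14, unadjusted p = 0.020, adjusted p = 0.818 with edgeR). All its Jak1 KO libraries lay below all wt libraries of their set, as in 0.963% of all genes. The median log2 fold change was -0.02 for brakes and -0.51 for the answering genes. These lists were chosen with results of these libraries known, so their counts are no independent evidence of direction.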

How the data were processed

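Raw read counts per gene, whole numbers and not normalised, are the deposited values for 12 libraries. Per the submitters' processing notes, reads were handled with STAR 2.3.0e, Subread and featureCounts on mm10. No source used here gives the annotation or whether strand was used, so reads of overlapping genes cannot be told apart. Columns were matched through the sample descriptions, groups come from the titles, and name sets from the descriptions. No libraries of a group agreed within sampling noise (lowest chi-square per degree of freedom 14.3).

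Tests ran in edgeR 4.0.16 under R 4.3.3 (filterByExpr on genotype, TMM factors, terms for name set and genotype, glmQLFit and glmQLFTest, Benjamini-Hochberg over 13184 genes, threshold 0.05). SE was taken as the log2 fold change over the root of F. Log2 CPM used a prior count of 2, ratios a pseudocount of 0.5. TPM was computed here from the union of GENCODE vM21 exons (23106 of 23472 symbols matched, 1236 as older symbols). DESeq2 1.42.0 and limma 3.58.1 (voom with quality weights) were alternatives. On simulated counts of the genotype comparison (13002 genes), edgeR recovered 54.1% of genes changed by 1 and 96.8% of those changed by 2 on the log2 scale, with 4.61% false calls, DESeq2 59.2% and 99.0% with 15.6%, and limma-voom 52.0% and 96.8% with 4.03%. The simulated counts held no name set differences or length trends, so these shares may not hold for the real counts.

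Named were all 10 members, Jak1, list genes past the threshold or else the 2 with the smallest p, and the 3 genes most like each of the 3 highest chains (mean of at least 5 CPM). Osmr, Il9r, Il31ra, Cntfr, Ifnlr1, Il10ra, Il2ra, Il2rb, Il7r, Il27, Pim1, Socs3, Irf1 and the other uncalled answering genes were chosen after their values were seen. Members, lists and tests were chosen with earlier results of these data known. Part of the list of signalling components is not reported here.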

Additional observations from a re-analysis of the deposited data

How the results depend on the processing

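The count of receptor chains past the threshold was 0 in 26 of the 27 alternatives and 1, Lifr, with the DESeq2 test. The interaction count was 0 in all 15. The count over all genes was 126 with DESeq2, 220 with limma-voom, 14 without a term for name set, 149 in VD alone, 0 in ZL alone and 96 without Jak1 KO 4, Jak1 KO 6 and wt 6, and 39 to 77 with 1 library left out, the lowest without Jak1 KO 2 or wt 1. Lifr kept its sign in all 24 alternatives that tested it (-2.53 to -1.76); VD alone and a filter of 1 CPM in 6 libraries gave no value for it.

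Chains with small fold changes changed sign without passing the test. With limma-voom the log2 fold change was 0.038 for Ifnar1, -0.067 for Ifnar2, 0.037 for Il6ra, 0.022 for Il6st and -0.093 for Il2rg. In VD alone it was 0.16 for Ifnar1, 0.089 for Il6st and -0.019 for Il2rg, and in ZL alone -0.20 for Il4ra. Without the 3 libraries named above it was 0.041 for Ifnar1 and -0.035 for Il2rg, and with the length offset -0.041 for Il2rg. With 1 library left out the ranges were -0.30 to 0.051 for Ifnar1, -0.50 to 0.074 for Il6st, -0.094 to 0.12 for Il2rg and -0.15 to 0.26 for Il4ra. The cause was not tested.

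Of the partner ratios, Lifr to Il6st could not reach the threshold in VD alone (-2.32) or ZL alone (-1.96), where 20 relabelings allow no p below 0.1, and ranged from -2.54 to -1.50 with 1 library left out. Ifnar1 to Ifnar2 was 0.13 in VD alone, and Ifngr1 to Ifngr2 ranged from -0.40 to 0.061 with 1 library left out. Il6ra to Il6st was 0.0017 with a pseudocount of 1 and 0.33 in ZL alone, and ranged from -0.29 to 0.29 with 1 library left out.

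Libraries of the 2 genotypes share replicate numbers, but no label says that a number marks a shared animal or batch. Deviations of same-numbered libraries correlated at 0.0429 to 0.668, not all above 0.1, and 3 of 6 Jak1 KO libraries matched their own number best, so the numbers were not taken as pairs. Other values did follow the numbers. Sex, read from Xist against Y-linked counts, was the same in both libraries of each number. In VD, Rn45s took 22.6%, 22.6% and 14.8% of counts in Jak1 KO 1 to 3 and 20.9%, 20.8% and 15.7% in wt 1 to 3. Whether the libraries are paired cannot be told. With a term for sex edgeR called 54 genes and 0 receptor chains. With the replicate block edgeR called 72 genes and 0 receptor chains, Il4ra was at -0.0078, and the exact sign-flip test of Lifr to Il6st gave -2.14 (adjusted p = 0.125, the smallest that 64 flips over 4 pairs allow, so it could not pass).

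Depth limits Lifr and Osmr, whose counts per library were at most 38 and 48.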
